A study of Homo sapiens with 2 samples.

Results

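The Arp2/3 complex starts new actin filaments as branches on the side of existing ones, and capping protein binds the fast-growing (barbed) ends of filaments and stops their growth. Together they build the branched actin network that pushes the membrane forward in lamellipodia. Capping protein, a heterodimer of an alpha and a beta chain, is also a part of dynactin. Described here are 10 genes chosen by symbol, 7 that encode the smaller Arp2/3 subunits (ARPC1A, ARPC1B, ARPC2, ARPC3, ARPC4, ARPC5 and ARPC5L) and 3 that encode capping protein (CAPZA1, CAPZA2 and CAPZB). Of these, 9 had a value on both arrays, against 11057 named genes measured on at least 1 array, and each of the 9 had 1 probe. ARPC4 had no named probe in the platform annotation used here.

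The cells were 293T, an established human embryonic kidney line, grown in Dulbecco's modified Eagle medium with fetal bovine serum. They were exposed to 10 µM Y27632, a small molecule that inhibits ROCK1 and ROCK2 kinase activity, for 3 h or for 6 h, and were compared with untreated 293T cells given a time of 0 h. Each time was measured on 1 two-colour array, with the treated RNA in Cy3 and the untreated RNA in Cy5 on both arrays and no dye swap. The titles of both arrays carry the word control and a time, and the treatment is given by the source name and agent of the Cy3 channel. ROCK kinases act through myosin light chain and LIM kinase on the contraction and turnover of actin filaments, so the comparison bears on transcripts of the actin machinery when that input is blocked.

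The deposited value of a probe is a log ratio of the channels, with a median of 0.00 over all probes on each array. The numerator and the log base are not stated in any source used here. Signs below are therefore those of the deposited ratio: a positive value means more transcript after Y27632 if treated RNA was the numerator, and less if untreated RNA was. Fold sizes assume base 2. With 1 array per time no value has a replicate, no test between conditions could be made, and precision is limited by the number of arrays. The effects of inhibitor, dye and culture time cannot be told apart, nor can those of exposure time and array. With no dye swap, a dye effect on a probe would recur on both arrays, so like values at both times do not separate it from the inhibitor. Whether the untreated RNA was the same on both arrays is not in the labels. The only error available was the SD between different probes of one gene, 0.31 on the 3 h array and 0.33 on the 6 h array among 572 multi-probe genes, which holds no spread between cultures. Ratios carry no level, so expression of the members, or of markers of 293T cells, could not be set out, and a shift in some cells cannot be distinguished from a shift in all.

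The members lay on the positive side of the ratio. At 3 h all 9 measured members were above 0, beside 51.3% of all named genes, and at 6 h 8 of 9 were, beside 51.5%. Those 8 were above 0 on both arrays, beside 40.4% of genes. The median log ratio of the 9 measured members was 0.45 at 3 h and 0.36 at 6 h, whereas the median of all named genes was 0.02 on each array. The 3 members at least 1.5-fold (0.58 log2 units) from 0 at 3 h were CAPZB, ARPC3 and ARPC2, all positive. Of named genes, 9.36% were at that size in either direction and 4.88% on the positive side. At 6 h CAPZB and ARPC3 were, beside 9.86% of named genes in either direction and 5.63% on the positive side. Both were positive and past this size on both arrays, beside 2.52% of 10469 genes. No member reached 2-fold in base 2, beside 1.61% of genes at 3 h and 1.43% at 6 h. If the values were natural logarithms, CAPZB would be 2.29-fold at 3 h and 2.53-fold at 6 h. With each array centred on the median of named genes, a shift of 0.02, ARPC2 was no longer past 1.5-fold at 3 h and ARPC1B lay at 0 there.

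**Figure D1:**
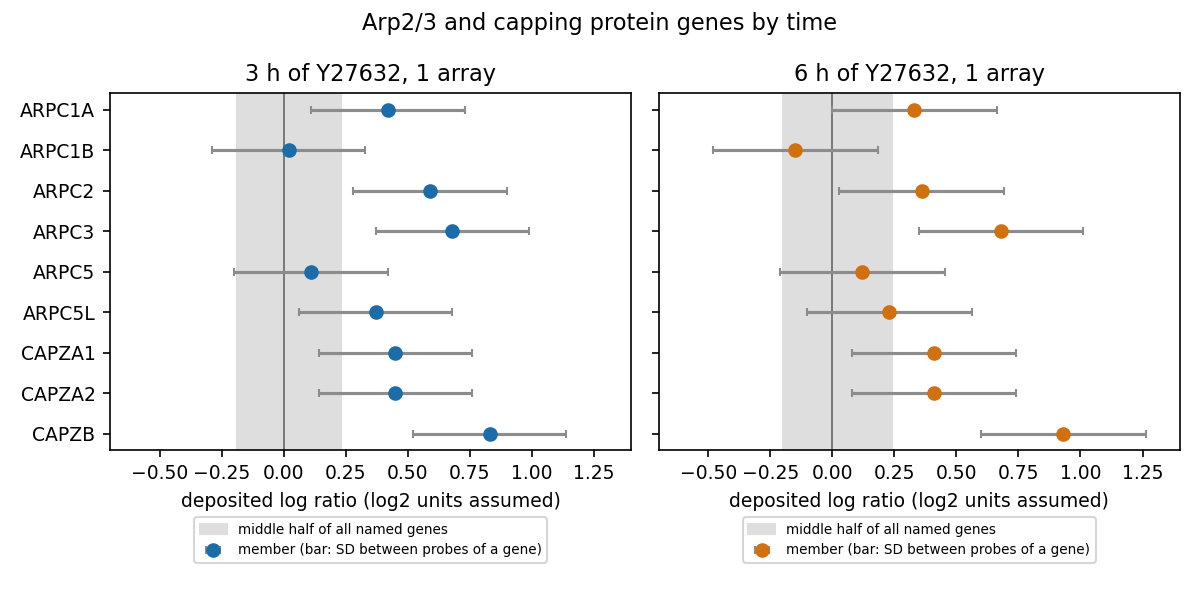
Deposited log ratio of the 9 measured members (log2 units assumed, horizontal axis) at 3 h on the left and 6 h on the right, 1 array each. Bars are the SD between probes of one gene over 572 genes (0.31 at 3 h, 0.33 at 6 h) and not an error of the member itself, and the grey band spans the lower to the upper quartile of all named genes. CAPZB and ARPC3 lie farthest to the right at both times. ARPC1B and ARPC5 lie inside the band at both times, and ARPC5L lies inside it at 6 h.

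Capping protein held the member farthest from 0. CAPZB, the beta chain that pairs with either alpha chain, had a log ratio of 0.83 at 3 h (1.78-fold) and 0.93 at 6 h (1.91-fold). These were 2.68 and 2.80 times the SD between probes, and 98.5% and 99.0% of named genes had lower values. The alpha chains CAPZA1 and CAPZA2, which form alternative dimers with the beta chain, had identical values of 0.45 at 3 h and 0.41 at 6 h from separate probes. They lay above 90.1% and 87.1% of genes. CAPZB was thus above both alpha chains by 0.38 at 3 h and 0.52 at 6 h. The SD of a difference between 2 single probes is 0.44 at 3 h and 0.47 at 6 h, so the gap was of the size of probe error at both times. CAPZA3, the alpha chain known from male germ cells and not one of the 10 genes, had a log ratio of −0.62 at 3 h and −0.83 at 6 h, on the other side of 0. Since ratios carry no level, whether CAPZA3 was expressed in these cells is not known.

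Among the Arp2/3 genes ARPC3 was the farthest from 0. ARPC3, a small subunit that contacts the actin-related subunit Arp3, had 0.68 on both arrays, a 1.60-fold difference, above 96.9% of genes at 3 h and 96.5% at 6 h. A probe listed as ARPC3B, now the pseudogene ARPC3P1, had 0.71 and 0.77, close to ARPC3. Whether that probe also binds ARPC3 transcripts was not tested, since probe sequences were not used here. ARPC2, which with ARPC4 forms the core that holds the mother filament, had 0.59 at 3 h, just past the 1.5-fold size, and 0.36 at 6 h. Its difference of −0.23 between the times was the largest of any member, and 12.7% of genes had a lower one.

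ARPC1A and ARPC1B are WD40-repeat subunits that replace each other in the complex, and their genes are direct neighbours on chromosome 7 in RefSeq (GRCh38.p14). ARPC1A had 0.42 at 3 h and 0.33 at 6 h. ARPC1B had 0.02 and −0.15, and was the 1 member below 0 on an array. ARPC1A exceeded ARPC1B by 0.40 at 3 h and by 0.48 at 6 h, each about 1 SD of a difference between probes. ARPC5L and ARPC5, alternative subunits that link Arp2 to the rest of the complex, had 0.37 and 0.11 at 3 h. At 6 h they had 0.23 and 0.12, and both gaps, 0.26 and 0.11, were below 1 SD of such a difference.

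The order of the members at 3 h was CAPZB, ARPC3, ARPC2, the alpha chains CAPZA1 and CAPZA2, ARPC1A, ARPC5L, ARPC5 and ARPC1B. At 6 h the alpha chains stood above ARPC2, and the order was otherwise the same. No 2 neighbours in either order differed by as much as 1 SD of a difference between probes, the largest gap between neighbours being 0.26 at 3 h and 0.27 at 6 h. The SD among members was 0.26 at 3 h and 0.31 at 6 h, against 0.36 among all named genes on each array. It was no larger than the SD between probes of a single gene, 0.31 and 0.33, so the order of the members is a description of these probes.

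**Figure D2:**
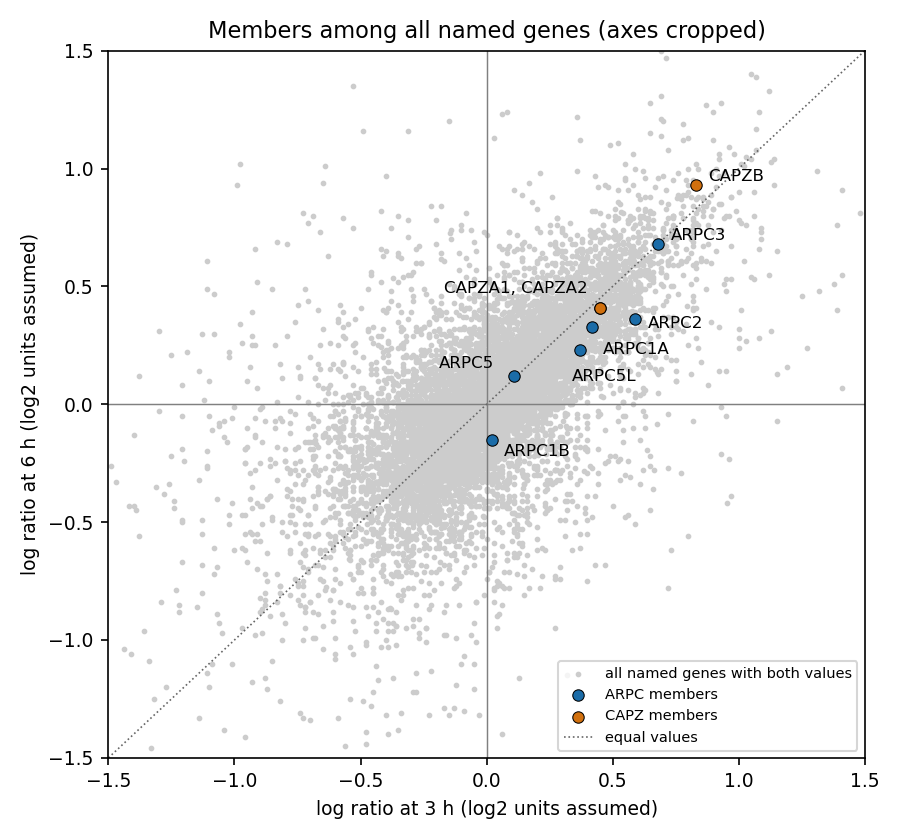
Log ratio at 3 h (horizontal) against 6 h (vertical), both in assumed log2 units, for all named genes with both values (grey) and the members (coloured by complex). Axes are cropped, so that the outermost genes are not shown, and the dotted line marks equal values. All members but ARPC1B lie in the upper right quadrant, from ARPC5 at 0.11 and 0.12 to CAPZB at 0.83 and 0.93.

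The members differed little between the arrays. Of the 9, 6 had a lower value at 6 h, 2 a higher one (CAPZB by 0.10 and ARPC5 by 0.01) and ARPC3 the same one. The median difference, 6 h minus 3 h, was −0.04, against −0.01 for all named genes, of which 51.2% had a negative difference. The median size of the difference was 0.09 for members and 0.13 for all genes. No member differed by 1.5-fold between the times, beside 5.75% of genes. The median of the Arp2/3 genes was 0.40 at 3 h and 0.28 at 6 h, and that of the capping protein genes was 0.45 and 0.41. CAPZB was compared with 10350 other genes with both values, leaving out members and placeholder symbols (LOC, ORF, KIAA and FAM). The nearest by Euclidean distance over the 2 arrays was ZNF56P, at 0.82 and 0.93. Next were DYNC1LI1, a light intermediate chain of cytoplasmic dynein, at 0.82 and 0.95, and ZNF84 at 0.80 and 0.93.

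To show what the members share at their starts, the 250 bases before the annotated gene start are printed for CAPZB and ARPC3, which were farthest from 0 at both times, and for ARPC5, which lay near 0 at both. They come from RefSeq, build GRCh38.p14, and run 5′ to 3′ on the gene's strand, with matches on either strand to the GC box (GGGCGG) and the ETS core (CGGAAG) in capitals.
CAPZB (chr1:19485540-19485789, minus strand): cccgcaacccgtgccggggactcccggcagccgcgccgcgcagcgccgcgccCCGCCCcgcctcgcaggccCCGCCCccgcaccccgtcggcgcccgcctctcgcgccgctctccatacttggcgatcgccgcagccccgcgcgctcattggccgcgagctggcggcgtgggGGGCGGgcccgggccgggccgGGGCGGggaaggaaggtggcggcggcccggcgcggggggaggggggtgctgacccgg
ARPC3 (chr12:110450338-110450587, minus strand): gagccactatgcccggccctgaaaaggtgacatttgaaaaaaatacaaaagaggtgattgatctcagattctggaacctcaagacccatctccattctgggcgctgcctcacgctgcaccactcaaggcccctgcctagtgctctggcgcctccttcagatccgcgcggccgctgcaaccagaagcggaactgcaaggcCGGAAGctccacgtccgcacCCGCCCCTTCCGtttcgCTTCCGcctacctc
ARPC5 (chr1:183635784-183636033, minus strand): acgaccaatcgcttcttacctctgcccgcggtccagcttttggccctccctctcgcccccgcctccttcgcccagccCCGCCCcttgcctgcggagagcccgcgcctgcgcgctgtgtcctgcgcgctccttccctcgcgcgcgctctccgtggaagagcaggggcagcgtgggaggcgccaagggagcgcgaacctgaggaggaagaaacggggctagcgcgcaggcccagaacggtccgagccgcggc

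Promoter windows from 250 bases before to 50 after the start were matched for 9 of the 10 genes, ARPC1B being the one not matched. All 9 held a GC box on either strand, as did 45.0% of 35116 RefSeq promoter windows of the same length. Their GC content ran from 60.3% in ARPC3 to 82.0% in CAPZB, against a median of 58.7% over all windows. The full set of windows was not limited to 1 per gene, to genes on the arrays or to the kind of gene the members are. CAPZB had 4 GC boxes and no ETS core. ARPC3 had 1 GC box and 4 ETS cores, 3 of which fall in the printed stretch. An ETS core was present in 5 of 9 members and 19.5% of all windows, and the NF-Y box (CCAAT) in 5 of 9 and 34.6%. ARPC5 held 1 ETS core, after its start. Whether the motifs and the log ratios of the members are related was not tested. The YY1 core (AAGATGG) was found just after the start of the alpha chain genes CAPZA1 and CAPZA2 and in no other member, and in 5.84% of windows. No member window matched the CArG box, the motif of SRF, which 1.29% of windows held, or the TEAD core (GGAATG), which 14.0% held. Matches of different motifs in the member windows did not overlap, and a match or its absence in these windows says nothing of a factor's binding.

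**Figure D3:**
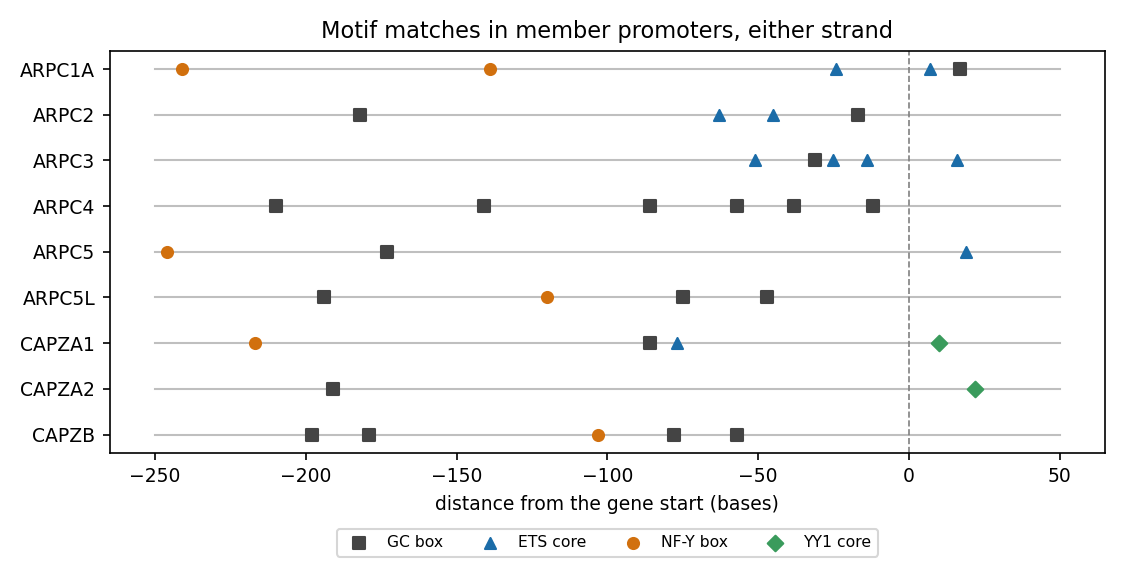
Positions of motif matches on either strand in the promoter windows of 9 members, as the distance in bases from the annotated gene start (dashed line) along the gene's strand. All windows hold at least 1 GC box (squares), ARPC3 holds 4 ETS cores (triangles), and the YY1 core (diamonds) lies after the start in CAPZA1 and CAPZA2. The 2 motifs with no match are not drawn.

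Genes that act on the Arp2/3 complex had values of both signs. Counts of positive genes from here on stand beside 51.3% of all named genes above 0 at 3 h and 51.5% at 6 h. Counts past 1.5-fold stand beside 9.36% of named genes in either direction at 3 h and 9.86% at 6 h. The actin-related subunit genes ACTR2, ACTR3, ACTR3B and ACTR3C had no named probe with a value here, and neither had the 6 genes of the WASH complex, which activates Arp2/3 on endosomes. The WAVE complex activates Arp2/3 at the leading edge of cells. Of its 11 genes, 3 of 6 measured were positive at 3 h and 5 of 7 at 6 h, with medians of −0.01 and 0.20. CYFIP1, a large WAVE subunit, had 0.48 and 0.54, and NCKAP1L, its blood-cell subunit, had 1 at 6 h with no value at 3 h. WASP, another activator of Arp2/3, and its partners had medians of 0.06 and −0.05, with 4 of 8 positive at each time. The F-BAR protein gene FNBP1L had 1.06 from 1 probe at 3 h and 0.80 from 2 probes at 6 h, and the adaptor gene NCK1 had 0.20 and 0.36.

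Genes of branch stabilisers, branch removers and other regulators of the complex came closest to the members among the activator lists. Of 8 measured at 3 h 7 were positive, with a median of 0.27, and of 9 at 6 h 6 were, with a median of 0.29. None was past 1.5-fold. CTTN, which encodes cortactin, a stabiliser of branches, had 0.53 at 3 h and 0.29 at 6 h, and the coronin gene CORO2B had 0.42 at 6 h with no value at 3 h. Regulators of capping protein and other proteins that cap barbed ends were spread around 0, with medians of 0.01 and 0.05 over 13 genes and 7 positive at each time. CD2AP, an adaptor that binds capping protein, had 0.54 at 3 h and 0.81 at 6 h.

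Dynactin, the dynein cofactor whose short filament is capped by CAPZA and CAPZB chains, had 5 measured genes. All 5 were positive at both times, beside 40.4% of named genes above 0 on both arrays, and their medians were 0.31 and 0.23. None of them was past 1.5-fold. DCTN4 had 0.32 at 3 h and 0.54 at 6 h, and ACTR10, of the pointed-end complex, had 0.50 and 0.23. Formins, which start and extend unbranched filaments and compete with capping protein for barbed ends, were more often negative than positive. Of 12 measured, 8 were negative at 3 h and 9 at 6 h, beside 47.5% and 47.3% of all genes, with medians of −0.22 and −0.22. DIAPH2 was an exception at 1.01 and 0.77, and FMN2 had −0.76 and −0.25.

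The medians of the remaining lists lay near 0. The Ena/VASP proteins and profilins, which feed growing ends, had medians of 0.03 and 0.00 over 6 genes, with PFN2 at 0.37 and 0.24 and VASP at −0.01 and 0.25. The cofilin pathway, through which ROCK acts on filament turnover, had medians of 0.07 and 0.02 over 14 genes, none past 1.5-fold. In it, TESK1, a kinase of cofilin, had 0.46 at 3 h and 0.51 at 6 h. ROCK1 had 0.14 and 0.41 and ROCK2 had 0.39 and 0.38.

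**Figure D4:**
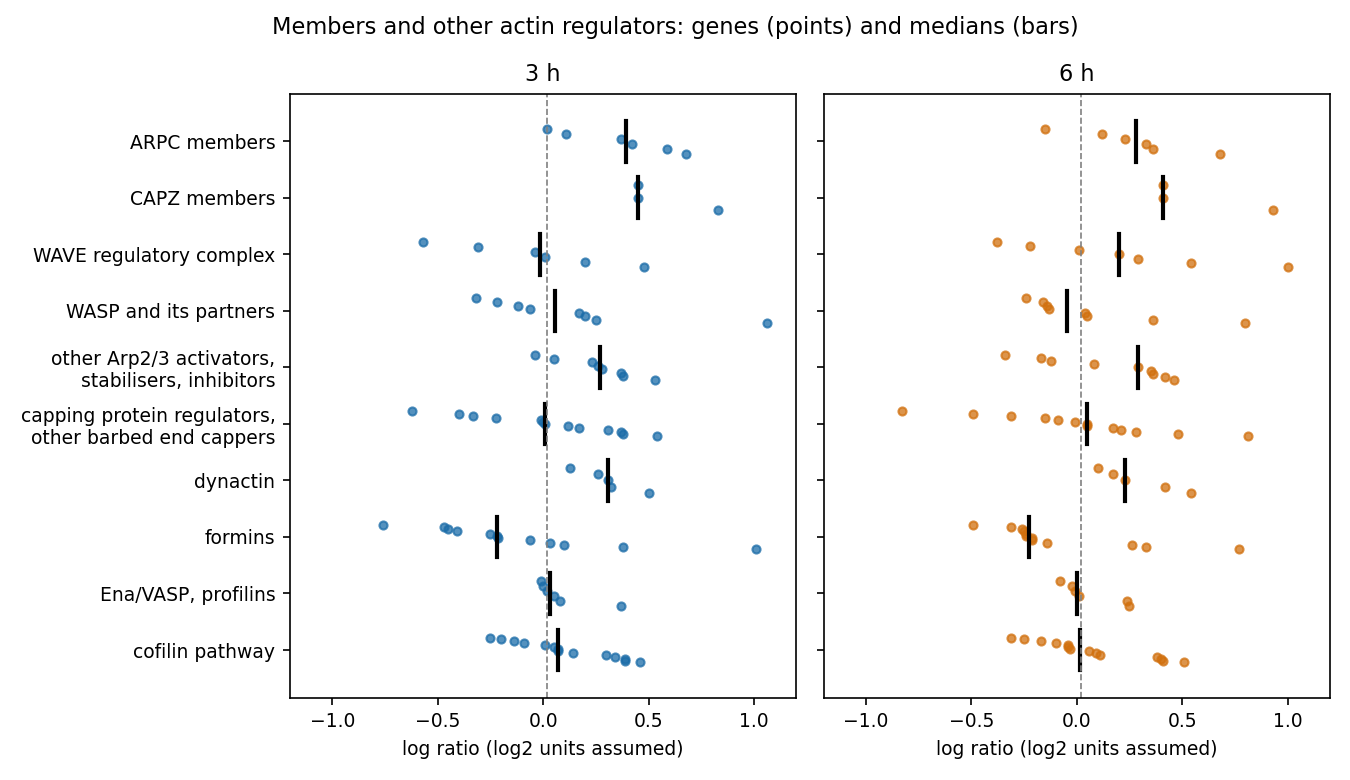
Log ratio (assumed log2 units, horizontal axis) of each measured gene (points) at 3 h on the left and 6 h on the right, with the members in the top 2 rows and lists of other actin regulators beneath. Black bars are list medians and the dashed line is the median of all named genes, 0.02. The medians of the members, of dynactin and of the other Arp2/3 activators, stabilisers and inhibitors lie right of the line at both times. The formin median lies left of it, at −0.22.

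Other large protein complexes were set beside the members, a comparison chosen after the values were seen. For 31 proteasome subunit genes the median was 0.19 at 3 h and 0.05 at 6 h, with 23 and 19 positive, and 1 and 0 past 1.5-fold. The 9 chaperonin genes had medians of 0.09 and 0.11, with 9 and 6 positive and 1 and 2 past 1.5-fold. Of all named genes, 9.36% at 3 h and 9.86% at 6 h were past this size in either direction. Olfactory receptor genes, which most tissues do not express, had a median of −0.17 at 3 h, with 45 positive and 104 negative of 152, and of −0.22 at 6 h, with 36 positive and 92 negative of 130. The part of any such difference between kinds of gene in the members' values was not tested. The members' medians were above those of both complexes at both times, and with 1 array per time no test of that difference could be made.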

How the data were processed

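Each array gave 1 deposited log ratio per probe, and the series table of 24267 probes, a log2 ratio by assumption, was used as the authors deposited it. Values have 2 decimals. The scanner software, background correction, normalization, spot filter, log base and numerator are not stated in any source used here, so their effect on the values is unknown. Probe names came from the platform annotation, which gave 13395 probes 1 symbol, 0 probes several and 10872 no symbol. Symbols were brought up to date through RefSeq (GRCh38.p14): 10822 probes had a current symbol, 2446 were updated through a unique synonym and 127 kept the platform's symbol. Probes of one gene were averaged, which gave 10810 genes at 3 h and 10716 at 6 h. Genes were counted at 1.5-fold and 2-fold from 0, with no test. In each list of regulators, genes past 1.5-fold were named, and otherwise the 2 farthest from 0 over both arrays. ROCK1 and ROCK2 were also named. A further list of regulators is not reported here. The members and lists were chosen with earlier results of these data known. Calculations used Python 3.11.15, pandas 2.3.3 and NumPy 2.4.6 and were tested on simulated data. Alternatives changed the probe summary, centring, probe filter, symbol update, fold size and log base.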

Additional observations from a re-analysis of the deposited data

Results flagged for a closer look

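ARPC1B was picked out because its sign differed between the times. Its log ratio was 0.02 at 3 h and −0.15 at 6 h, and the difference, 6 h minus 3 h, was −0.17. Both values are smaller than the SD between probes of one gene, and the difference between the times was not tested, since each time has 1 array.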

How the results depend on the processing

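The counts of members past 1.5-fold changed with the size and the log base. At 2-fold in base 2 they were 0 at 3 h and 0 at 6 h, in place of 3 and 2. If the deposited values were natural logarithms, 6 members at 3 h and 4 at 6 h would be past 1.5-fold, beside 20.8% and 22.4% of named genes. Of 123 alternative values, these 4 counts moved by over 1.5 times, and no median or member value moved by more than 0.02. Taking the probe farthest from 0, the median of the probes, probes with both values or symbols as listed left every member value as it was, since each member has 1 probe, and these settings therefore say nothing of stability. Centring each array on the median of named genes shifted values by 0.02, which left 2 members past 1.5-fold at 3 h and put ARPC1B at 0 there. Medians with CAPZA1 and CAPZA2 counted once, or with the ARPC3P1 probe averaged into ARPC3, were computed after seeing the data and stayed within the probe error. No paired analysis was possible because each time has 1 array and the labels number no replicates. Single probes, no replicate arrays and no intensities limit every value.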

Other observations

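CAPZA1 and CAPZA2 had the same values on both arrays, 0.45 and 0.41, from probes with different identifiers. Of 19781 probes with both values, 2 others had this pair of values. Of all pairs of probes, 0.0126% were identical on both arrays to 2 decimals. The probes' sequences were not used here, so whether they bind the same transcripts was not tested. WASF2, a WAVE subunit gene named after its values were seen, had −0.57 at 3 h and 0.29 at 6 h, which differ by 0.86.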
